A study of Caenorhabditis elegans with 12 samples.

Results

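The transcript response to dietary restriction (DR), averaged over wild type worms and sek-1(km4) mutants, was measured in whole Caenorhabditis elegans adults. All 12 libraries of the study entered the comparison, 6 of DR worms against 6 of worms fed ad libitum (AL), with genotype as an additive term, so that each gene received 1 diet effect averaged over both genotypes. The DR libraries were 3 of N2, the wild type strain, and 3 of sek-1(km4), and the AL libraries were again 3 of each strain. The mutants carry km4, a deletion allele of sek-1, in all cells, and SEK-1 is a MAP kinase kinase that passes signals to the p38 kinase PMK-1. The diets began with transfer to liquid medium on day 3 of adulthood, and RNA was taken on day 6, at 20 °C throughout. Growth-arrested OP50 bacteria were given at an optical density of 0.1 for DR and 3 for AL, and every group also received 100 mg/L of FUdR, which blocks production of progeny. Each well of 1 ml held 10 to 20 worms, poly(A) RNA was sequenced with 50 bp single-end reads, and the labels call the 3 libraries of a group biological replicates. Whether these came from separate cultures is not stated, so the p-values measure the spread between these libraries.

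Dietary restriction by dilution of the bacterial food lengthens the life of C. elegans, and transcription factors such as PHA-4, SKN-1 and HLH-30 are known to be needed under one regimen or another. A worm with little food draws on its intestinal fat through lipases and beta-oxidation, and it spends less on yolk and cuticle. The p38 cascade of TIR-1, NSY-1, SEK-1 and PMK-1 keeps a set of antimicrobial genes active in the intestine. Comparing the diets with genotype held as a separate term gives an average over worms with and without SEK-1. Such an average does not by itself show that a transcript moved in both strains.

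Total counts ranged from 13673987 to 31675540 per library, and ribosomal RNA took 32.63% to 50.95% of them. Of the N2 AL libraries, replicate 3 stood apart. Its correlation across genes with another library of its group was 0.904 at the lowest, while those within the other 3 groups were 0.9798 or more, and its share of mitochondrially encoded mRNA outside rRNA was 1.178%, the highest of the 12 libraries. All results are therefore given for the 12 libraries, and the main ones also without it. The sek-1 count was 20.8 to 28.6 counts-per-million (CPM) in DR libraries and 16.39 to 22.8 CPM in AL libraries other than N2 AL replicate 3, which had 3.72 CPM. Reads from exons that the deletion spares also count, so this level does not check the allele. In whole worms, fewer cells of a type and less RNA per cell cannot be told apart.

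Averaged over the genotypes, DR raised a small set of genes and lowered a set of similar size. Of 14611 genes tested with edgeR, 215 (1.47%) were higher and 234 (1.6%) were lower on DR at an adjusted p under 0.05, 449 genes (3.07%) in all. A change of 2-fold or more was reached by 68 of the risen and 162 of the fallen genes. The median size of the log2 fold change was 0.86 among the genes that rose and 1.29 among the genes that fell. Without N2 AL replicate 3, 768 genes (5.17%) were higher and 578 (3.89%) lower of 14847 tested, 9.07% together. All 215 and all 234 genes were again called in their direction there. The counts of each gene list below are to be read beside these shares of all tested genes, each in its own fit. The biological coefficient of variation was 0.171 without that library, against 0.308 with it. Of the genes that rose, 198 were protein coding, 11 were pseudogenes and 6 were noncoding RNAs of other kinds, while all 234 genes that fell were protein coding.

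Nearly all of the called genes had a fitted change in the same direction in both genotypes. The fitted sign was the same in N2 and in sek-1(km4) for 448 of the 449 genes, which the averaging favours. The DR and AL libraries did not overlap within either genotype for 186 of the genes that rose and for 211 of those that fell. Picking genes by their averaged effect favours this separation too, so it is no separate support. Over all tested genes such a separation in both genotypes was found for 487 genes (3.33%) with DR higher, for 410 (2.81%) with DR lower, and for 162 (1.11%) with the genotypes in opposite directions. All 6 DR libraries lay above all 6 AL libraries for 39 of the risen genes, and below them for 84 of the fallen genes, against 76 (0.52%) and 107 (0.732%) over all tested genes. In the contrasts of DR against AL within a strain, 66 genes (0.452%) passed in sek-1(km4) and 159 (1.09%) in N2, with 40 passing in both. Neither contrast called 313 of the 449 genes. Both contrasts used 1 estimate of the spread shared by all groups, so their counts do not rank the strains. Fitted on its own 6 libraries, sek-1(km4) had 995 higher and 1166 lower genes, and N2 had 0 and 0. The N2 fit held N2 AL replicate 3 as 1 of its 3 AL libraries, so these counts do not rank the strains either.

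**Figure D1:**
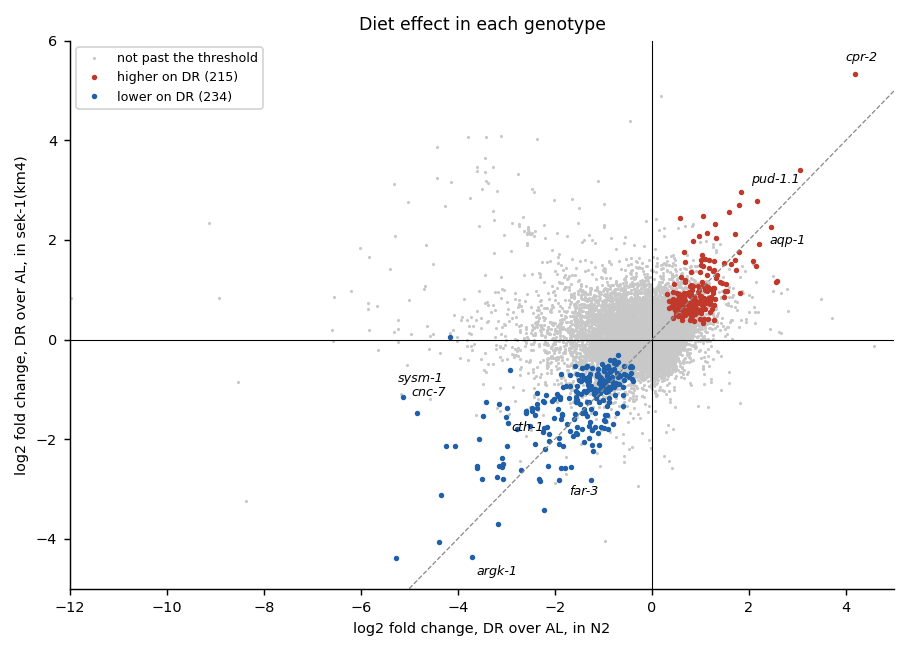
Log2 fold change of DR over AL in N2 (x axis) and in sek-1(km4) (y axis) for the 14611 tested genes, each point 1 gene, with the 215 higher genes in red and the 234 lower genes in blue. The called genes except 1 have the same sign on both axes, while many grey genes spread along the N2 axis to the left.

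A diet effect that differed between the genotypes was not found at the threshold in the 12 libraries. The interaction test called 0 of 14611 genes (0%) with edgeR, although 1302 genes had an unadjusted p under 0.05 and DESeq2 called 18 genes with a higher and 17 with a lower diet effect in sek-1(km4). Without N2 AL replicate 3, 9 genes (0.0606%) were called with a higher and 4 (0.0269%) with a lower effect in the mutant, 0.0876% of 14847 together, and the 13 were picked by that test alone. Among them, the lectin gene clec-52 had a log2 fold change of 0.18 in sek-1(km4) against 2.40 in N2, and the heme transporter gene hrg-1 had 1.43 in sek-1(km4) against −0.21 in N2. Across genes, the log2 fold changes of the 2 genotypes correlated at r = 0.118 (rho 0.166, 14611 genes), and at r = 0.382 (rho 0.306, 14847 genes) without N2 AL replicate 3. Genes are not independent replicates, and each genotype's values share its own AL libraries.

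Among genes that averaged 5 CPM or more over the 12 libraries, the largest rise was that of cpr-2, a gene of the cathepsin B-like cysteine proteases, on chromosome V at 16532936 to 16534100 (WBcel235). It had 106, 220.4 and 230.3 CPM in N2 DR and 60.9, 81.3 and 116 CPM in sek-1(km4) DR, against 8.32, 10.2 and 12.26 CPM in N2 AL and 1.94, 1.54 and 2.92 CPM in sek-1(km4) AL. The lowest DR library had more than any AL library. The diet effect was 4.74 ± 0.33 on the log2 scale (SE), a 26.7-fold rise, with an edgeR adjusted p of 1.95e-05. Leaving out any single library kept it between 4.57 and 4.95.

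The aquaglyceroporin gene aqp-1, for a channel of water and glycerol, had 23.2, 33.7 and 28.5 CPM in N2 DR and 53.9, 59.4 and 52.3 CPM in sek-1(km4) DR. Its AL values were 5.43, 5.26 and 7.80 CPM in N2 and 13.4, 13.3 and 17.4 CPM in sek-1(km4), so the diets were apart in each strain and over all 12 libraries. The rise was 2.06 ± 0.15 (4.17-fold, edgeR adjusted p = 1.95e-05). The alcohol dehydrogenase gene adh-1 had 162, 274 and 166 CPM in N2 DR and 208, 177 and 139 CPM in sek-1(km4) DR, against 76.0, 74.8 and 64.8 CPM in N2 AL and 60.5, 56.5 and 63.1 CPM in sek-1(km4) AL. It rose by 1.51 ± 0.16 (edgeR adjusted p = 0.000395), with nearly the same effect in N2 (1.48) and sek-1(km4) (1.54). F21C10.10 rose by 1.39 ± 0.15 and C32B5.12 by 1.15 ± 0.14, both with all 6 DR libraries above all 6 AL libraries. The F-box gene fbxa-163 rose by 1.32 ± 0.18, rrf-2, of the RNA-dependent RNA polymerase family, by 1.29 ± 0.21, and R03H10.6 by 1.23 ± 0.20. Y6E2A.4 rose by 1.32 ± 0.25, but missed the threshold without sek-1(km4) DR replicate 2 (1.29) or sek-1(km4) AL replicate 1 (1.26). Another gene of the 15 largest rises, clx-1, rose by 1.34 ± 0.32 and missed the threshold in 9 of the 12 fits that each left out 1 library, among them those without each N2 DR and each sek-1(km4) AL library, N2 AL replicate 2 and sek-1(km4) DR replicates 2 and 3, with 1.22 to 1.44.

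**Figure D2:**
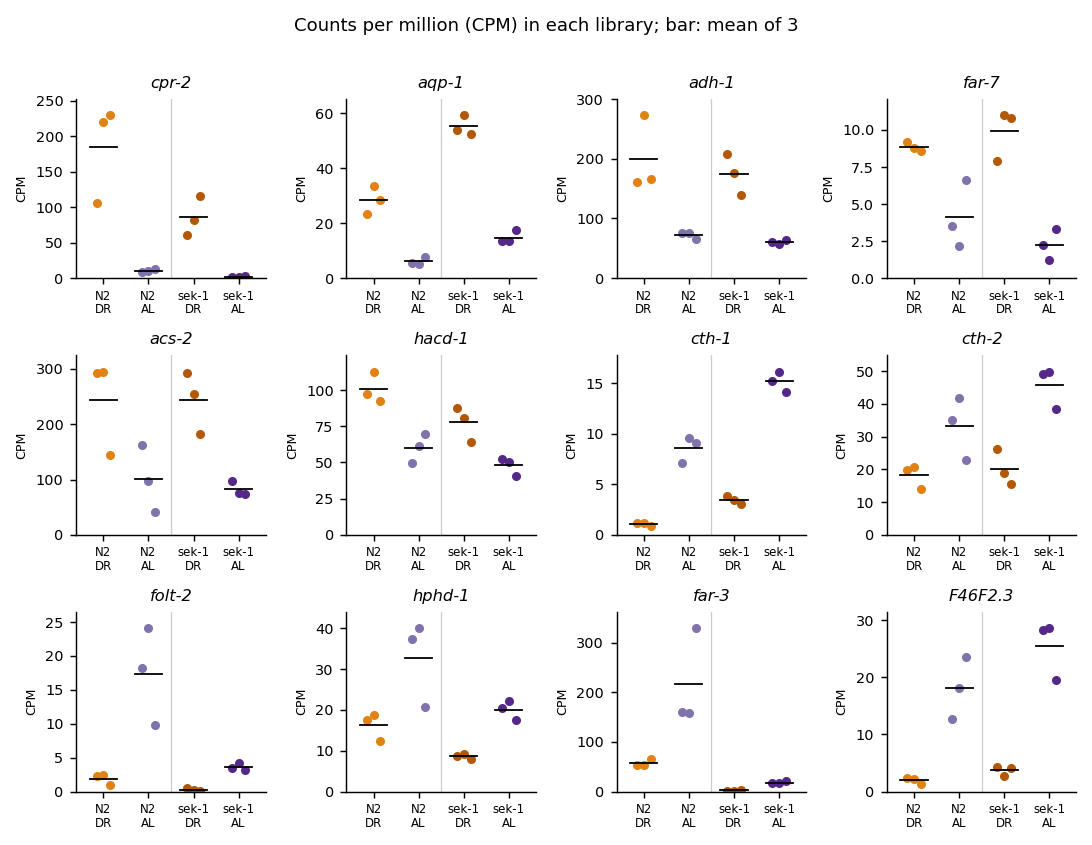
CPM of 12 genes (y axes, linear from 0) in each library, by strain and diet (x axes), each point 1 library and each bar the mean of 3. In cpr-2, aqp-1, adh-1 and far-7 every DR point lies above every AL point, and in cth-1 and F46F2.3 every DR point lies below every AL point.

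All 6 pud genes rose. Their name stands for proteins upregulated in daf-2 mutants, which have low insulin signalling. The 6 genes stand next to each other on chromosome V, and some are near-identical copies, so that reads may be split between them and each single value is uncertain. pud-1.1 had 17.6, 17.9 and 12.9 CPM in N2 DR and 2.74, 3.95 and 2.80 CPM in sek-1(km4) DR, against 4.11, 3.03 and 6.5 CPM in N2 AL and 0.317, 0.231 and 0.687 CPM in sek-1(km4) AL. The strains differed in level, and within each strain the diets did not overlap. The log2 rises were 2.3 ± 0.29 for pud-1.1, 2.18 ± 0.25 for pud-1.2, 1.62 ± 0.26 for pud-2.1, 1.73 ± 0.33 for pud-2.2, 1.97 for pud-3 and 3.21 ± 0.35 for pud-4. In sek-1(km4) AL, pud-3 and pud-4 were at 0 to 0.0859 CPM, under the level of 3 counts (0.106 to 0.129 CPM in those libraries), so the size of their rise is uncertain. Without N2 AL replicate 3, all 6 rose, with a median of 2.33, against 2.07 with it.

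Genes of fat use moved one by one rather than as a list. Of 35 tested genes of fatty acid beta-oxidation 3 rose and 1 fell, with a list median of −0.09, against −0.04 over all genes, while without N2 AL replicate 3, 3 rose and 6 fell. The acyl-CoA synthetase gene acs-2, a known fasting gene, had 293, 295 and 145 CPM in N2 DR and 293, 254 and 183 CPM in sek-1(km4) DR. Its AL values were 162, 97.1 and 41.7 CPM in N2 and 96.9, 75.8 and 73.2 CPM in sek-1(km4), and the N2 groups overlapped. It rose by 1.43 ± 0.29 (edgeR adjusted p = 0.0186). The call was lost without N2 DR replicate 1 or 2, sek-1(km4) DR replicate 2 or any sek-1(km4) AL library, with values of 1.37 to 1.48. The hydroxyacyl-CoA dehydrogenase gene hacd-1 had 97.2, 113 and 92.5 CPM in N2 DR and 87.5, 81.0 and 64.3 CPM in sek-1(km4) DR, against 49.6, 61.0 and 69.3 CPM in N2 AL and 52.2, 50.6 and 40.9 CPM in sek-1(km4) AL. It rose by 0.72 ± 0.13 (edgeR adjusted p = 0.00863) and kept its call in each fit that left out 1 library. ech-9, of the enoyl-CoA hydratase family, rose by 2.05. The peroxisomal acyl-CoA oxidase gene acox-1.2 fell by 1.53 on the log2 scale, and this call was lost without any 1 of N2 DR replicates 1, 2 and 3, sek-1(km4) DR replicates 2 and 3 and sek-1(km4) AL replicates 1 and 2 (−1.62 to −1.42).

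Of 7 lysosomal lipase genes 1 rose, and 2 without N2 AL replicate 3. lipl-4, a lysosomal acid lipase gene whose activity is known to lengthen life, had 1.54, 1.99 and 1.83 CPM in N2 DR and 0.793, 0.754 and 0.485 CPM in sek-1(km4) DR. It had 0.487, 0.4 and 0.650 CPM in N2 AL and 0.423, 0.423 and 0.215 CPM in sek-1(km4) AL. The diets were apart within each strain, and the rise was 1.39 ± 0.27 (edgeR adjusted p = 0.0149), lost only without N2 DR replicate 2 (1.31). Among 16 genes of fatty acid and retinol binding proteins, secreted or cytosolic lipid carriers, far-7 rose and far-3 fell. far-7 had 9.21, 8.75 and 8.56 CPM in N2 DR and 7.93, 11 and 10.8 CPM in sek-1(km4) DR, against 3.55, 2.17 and 6.60 CPM in N2 AL and 2.22, 1.23 and 3.31 CPM in sek-1(km4) AL (1.64 ± 0.30, edgeR adjusted p = 0.0114). far-3 had 53.6, 52.5 and 65.7 CPM in N2 DR and 1.73, 2.01 and 4.1 CPM in sek-1(km4) DR, against 160.3, 159 and 329 CPM in N2 AL and 17.8, 16.23 and 20.6 CPM in sek-1(km4) AL. It fell by 2.34 on the log2 scale (SE 0.28, edgeR adjusted p = 0.000757), at very different levels in the strains.

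Fat synthesis and yolk gave little at the threshold. Of 23 genes of fatty acid synthesis and desaturation, 1, elo-9, of the fatty acid elongases, fell (−1.09 ± 0.26), and that call was lost in 8 of the 12 fits that left out 1 library, all but those without N2 AL replicate 3, sek-1(km4) AL replicate 1 or 3, or sek-1(km4) DR replicate 1, at −1.12 to −0.97. The stearoyl-CoA desaturase gene fat-7 had −0.73 ± 0.22 and did not pass. All 6 vitellogenin genes, which encode yolk proteins, had negative values with a median of −0.91, and 0 of 6 passed, against 4 of 6 without N2 AL replicate 3. The vit-3 gene had 391.7 to 1137 CPM in DR libraries (median 679), against 659 to 2403 CPM in AL libraries (median 1921). Its diet effect was −1.29 ± 0.35 (edgeR adjusted p = 0.0737), and −1.51 without that library (edgeR adjusted p = 0.011). vit-2 had −0.48 ± 0.33 and did not pass in either fit.

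Genes of cysteine and folate metabolism held some of the largest falls. Of 24 tested genes of methionine, transsulfuration and folate metabolism, 3 fell and 0 rose, and the median of the list was −0.01. The cystathionine gamma-lyase gene cth-1, for the enzyme that makes cysteine from cystathionine, had 1.19, 1.15 and 0.876 CPM in N2 DR and 3.82, 3.48 and 3.07 CPM in sek-1(km4) DR. It had 7.06, 9.60 and 9.10 CPM in N2 AL and 15.3, 16.15 and 14.1 CPM in sek-1(km4) AL. All DR libraries were below all AL libraries, and the gene fell by 2.53 on the log2 scale (SE 0.19, 5.78-fold, edgeR adjusted p = 1.95e-05). The related gene cth-2 had 13.9 to 20.8 CPM in N2 DR and 15.4 to 26.3 CPM in sek-1(km4) DR, against 22.9 to 42.0 CPM in N2 AL and 38.6 to 49.9 CPM in sek-1(km4) AL. It fell by 1.03 on the log2 scale (SE 0.19), a call lost without N2 DR replicate 3, sek-1(km4) DR replicate 2, or sek-1(km4) AL replicate 1 or 2 (−0.98 to −0.97). folt-2, of the folate transporter family, had 2.29, 2.48 and 0.996 CPM in N2 DR and 0.469, 0.251 and 0.0539 CPM in sek-1(km4) DR, against 18.3, 24.1 and 9.85 CPM in N2 AL and 3.53, 4.27 and 3.13 CPM in sek-1(km4) AL. It fell by 3.38 on the log2 scale (SE 0.35, edgeR adjusted p = 0.000395), with −3.70 in sek-1(km4) and −3.18 in N2.

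The arginine kinase gene argk-1, next to cth-1 and under the 5 CPM rule for leading genes, had 0.441, 0.306 and 0.159 CPM in N2 DR and 1.12, 0.467 and 0.431 CPM in sek-1(km4) DR. It had 4.35, 4.97 and 2.42 CPM in N2 AL and 15.6, 15.7 and 11.7 CPM in sek-1(km4) AL, and it was named after its values were seen. Its fall was 4.09 on the log2 scale (−4.09 ± 0.31, edgeR adjusted p = 2.36e-05). F46F2.3, the uncharacterised gene with the smallest p among the falls, had 2.42, 2.14 and 1.35 CPM in N2 DR and 4.25, 2.80 and 4.15 CPM in sek-1(km4) DR, against 12.7, 18.1 and 23.5 CPM in N2 AL and 28.3, 28.5 and 19.5 CPM in sek-1(km4) AL (−2.98 ± 0.22). In the propionate shunt, a breakdown route used when vitamin B12 is low, 1 of 5 genes passed, against 3 without N2 AL replicate 3 and 4 with DESeq2. That gene, hphd-1, had 17.6, 18.7 and 12.43 CPM in N2 DR and 8.61, 9.23 and 8.09 CPM in sek-1(km4) DR, against 37.5, 40.01 and 20.7 CPM in N2 AL and 20.4, 22.3 and 17.6 CPM in sek-1(km4) AL (−1.11 ± 0.17, edgeR adjusted p = 0.004). acdh-1, which encodes the first enzyme of the route, did not pass (−1.51 ± 0.40, edgeR adjusted p = 0.0623), with −2.45 in sek-1(km4) and −0.58 in N2.

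Cuticle collagens were the largest group of falls. Of 123 tested collagen genes 29 (23.6%) fell and 0 rose, against 1.6% and 1.47% of all tested genes, and 107 of the 123 had a negative value, with a median of −0.81. Without N2 AL replicate 3, 45 fell and 1 rose of 124. The summed collagen level was 937 to 2528 CPM in DR libraries and 3013 to 5318 CPM in AL libraries, without overlap. col-160 had 4.45, 2.75 and 0.836 CPM in N2 DR and 7.57, 4.85 and 3.88 CPM in sek-1(km4) DR, against 41.7, 32.4 and 23.7 CPM in N2 AL and 41.6, 35.3 and 18.5 CPM in sek-1(km4) AL (−3.06 ± 0.39, edgeR adjusted p = 0.000989). It overlaps the model of col-159 (−3.06 ± 0.38) on chromosome V, so the values of this pair are not independent. col-42 had 12.31 to 27.4 CPM in DR libraries (median 22.5), against 60.8 to 118.6 CPM in AL libraries (median 91.6), and fell by 2.06 on the log2 scale (SE 0.23). col-98 (−2.22 ± 0.25), col-93 (−3.66 ± 0.41), col-101 (−2.08 ± 0.34) and col-20 (−2.2 ± 0.35) also had all 6 DR libraries below all 6 AL libraries. col-183 fell by 2.75 on the log2 scale at levels of 27 to 37 CPM in N2 DR and 0.682 to 1.66 CPM in sek-1(km4) DR, against 94.4 to 236 CPM in N2 AL and 7.13 to 16.3 CPM in sek-1(km4) AL.

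Other genes of the cuticle and apical matrix had few calls. Of 55, 2 rose and 1 fell, with a median of 0.25. In the 12 fits that left out 1 library, the rises of lpr-6 and cutl-16 were lost in 10 and 9 and the fall of cut-3 in 4. Of 39 tested hedgehog-related genes, secreted proteins many of which are made in the epidermis, 6 fell and 0 rose, with a median of −0.60 (7 and 1 of 40 without N2 AL replicate 3, median −0.32), and this list was added after its values were seen. grd-5 (−1.65 ± 0.24) and grd-3 (−1.34 ± 0.22) were among them. Among 25 body wall muscle genes 3 fell and 0 rose (9 and 1 without N2 AL replicate 3), with a median of −0.47. The fallen genes were unc-27, for troponin I (−1.17 ± 0.22), pat-10, for troponin C (−0.90 ± 0.20), and mlc-2, for a myosin light chain (−0.70 ± 0.15). unc-27 averaged 20.8 ± 6.9 CPM in N2 DR and 15.5 ± 3.4 CPM in sek-1(km4) DR, against 44.2 ± 13.1 CPM in N2 AL and 37.2 ± 11.44 CPM in sek-1(km4) AL (SD, n = 3 each). In the 12 fits that left out 1 library, the calls of these muscle genes were lost in 4, 5 and 9, with unc-27 between −1.14 and −1.07 without N2 DR replicate 3, sek-1(km4) DR replicate 2 or sek-1(km4) AL replicate 1 or 2, pat-10 between −0.92 and −0.85 without N2 DR or sek-1(km4) DR replicates 1, N2 DR replicate 2, sek-1(km4) DR replicate 3 or sek-1(km4) AL replicate 1, and mlc-2 between −0.72 and −0.60 in all but those without N2 DR replicate 1, N2 AL replicate 3 or sek-1(km4) AL replicate 3. The summed level of the muscle list was 1116 to 1970 CPM in DR libraries and 1234 to 2346 CPM in AL libraries. Falls made up 15.4% of the hedgehog-related list and 12% of the muscle list, against 1.6% of all tested genes. Without N2 AL replicate 3, 3.89% of all tested genes fell.

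Immune genes were among the falls averaged over the strains, and several stood at far lower levels in sek-1(km4). Of 18 tested p38-dependent immune effector genes 5 fell and 0 rose, with a median of −0.83, and of 16 genes for antimicrobial peptides of the epidermis 5 fell and 0 rose, with a median of −1.06. Those falls made up 27.8% and 31.2% of these lists, against 1.6% of all tested genes. By strain, the median of the first list was −0.96 in N2 and −0.32 in sek-1(km4). That of the second was −1.67 in N2 and −0.46 in sek-1(km4), with N2 AL replicate 3 included in both N2 values. The difference between strains was not tested for these lists. In the fit without N2 AL replicate 3, 7 fell and 1 rose in the first list, and 7 fell and 0 rose in the second, with medians of −1.02 and −0.62. There, 3.89% of all tested genes fell and 5.17% rose. The lysozyme gene lys-2 had 34.4, 42.3 and 23 CPM in N2 DR and 0.577, 0.467 and 0.809 CPM in sek-1(km4) DR. It had 66.3, 70.9 and 126 CPM in N2 AL and 1.66, 1.73 and 1.55 CPM in sek-1(km4) AL. The diets were apart in each strain, and the log2 fold change was −1.44 in sek-1(km4) and −1.4 in N2 (−1.41 ± 0.21 averaged, edgeR adjusted p = 0.0035). Another lysozyme gene, lys-1, fell by 1.00 (SE 0.18). Of 12 tested lysozyme genes 2 (16.7%) fell, 0 rose and 4 had positive values, with a median of −0.17. Without N2 AL replicate 3, 2 fell and 1 rose of 13. The lysozyme gene ilys-3 was not called in the 12 libraries. It had 1.55 to 2.14 in the 12 fits that left out 1 library, and passed in 2 of them. The effector gene sysm-1 had 0.705, 0.268 and 0.598 CPM in N2 DR and 0, 0.0718 and 0.108 CPM in sek-1(km4) DR, against 12.14, 13.3 and 30.1 CPM in N2 AL and 0.247, 0.0769 and 0.0430 CPM in sek-1(km4) AL. Its averaged value of −4.65 ± 0.65 came from N2 (−5.13), while the mutant (−1.15) was near or under the level of 3 counts. C17H12.6 was the called gene with opposite signs, at 0.05 in sek-1(km4), where it was also under that level, and −4.16 in N2.

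The epidermal antimicrobial genes that fell were cnc-2, cnc-4, cnc-7, nlp-29 and nlp-33. cnc-4 had 5.02, 3.94 and 5.42 CPM in N2 DR and 0.324, 0.251 and 0.431 CPM in sek-1(km4) DR, against 15.4, 11.2 and 32.2 CPM in N2 AL and 1.34, 0.769 and 0.859 CPM in sek-1(km4) AL (−1.87 ± 0.28, edgeR adjusted p = 0.00363). N2 AL replicate 3 held the highest value of all 5, and without it cnc-4 had −1.51 and cnc-7 had −2.08 against −2.90 with it, all still called. cnc-7 lost its call without any N2 DR library, sek-1(km4) DR replicate 1 or 2, or sek-1(km4) AL replicate 1 (−3.08 to −2.59), and cnc-2 (−2.09 ± 0.48) without any N2 DR library or sek-1(km4) DR replicate 1 or 2 (−2.09 to −1.91). The C-type lectin genes, a large family of carbohydrate-binding domain proteins, had 1 rise and 8 falls among 89 tested, with a median of −0.17. There were 7 rises and 12 falls among 94 without N2 AL replicate 3, with a median of 0.00. Over all tested genes 1.47% rose and 1.6% fell in the 12 libraries, and 5.17% and 3.89% did so without that library. clec-218 (−1.43 ± 0.20), clec-209 (−1.97 ± 0.26) and clec-258 (−4.2 ± 0.52) fell, and clec-82 rose by 1.54.

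Upstream of SEK-1, tir-1, which encodes the TIR-domain adaptor that starts the cascade, rose. It had 118.9, 103 and 88.9 CPM in N2 DR and 264, 266 and 242 CPM in sek-1(km4) DR, against 54.3, 47.2 and 24.6 CPM in N2 AL and 135, 137 and 169 CPM in sek-1(km4) AL. The diets were apart in each strain (1.05 ± 0.19, edgeR adjusted p = 0.00937), and the call was lost only without sek-1(km4) AL replicate 2 (1.07). It was 1 of 8 tested components of the pathway to pass. The kinase gene pmk-1 had 0.38 ± 0.12 and sek-1 itself 0.48 ± 0.30, and neither passed. Of 30 pals genes, a family that includes regulators of the response to intracellular pathogens, 3 rose and 0 fell, with a median of 0.53, and 9 rose without N2 AL replicate 3. The share of all tested genes that rose was 1.47%, and 5.17% without that library. In the 12 fits that left out 1 library, the calls of pals-27 and pals-33 were lost in 9 and 8. pals-26 had 6.11 to 7.67 CPM in N2 DR and 11.2 to 14 CPM in sek-1(km4) DR, against 2.51 to 3.79 CPM in N2 AL and 7.02 to 8.46 CPM in sek-1(km4) AL (0.93 ± 0.15, edgeR adjusted p = 0.00468).

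Genes of detoxication enzymes mostly fell where they passed. Of 50 cytochrome P450 genes 5 fell and 0 rose, of 35 glutathione S-transferase genes 4 fell and 0 rose, and of 56 UDP-glucuronosyltransferase genes, whose products attach sugar to small molecules, 7 fell and 3 rose. The medians of these lists were −0.15, −0.36 and −0.03. Of all tested genes, 1.6% fell and 1.47% rose, and 3.89% and 5.17% without N2 AL replicate 3. Leaving out N2 AL replicate 3, 8 fell and 1 rose of 51 cytochrome P450 genes, 5 fell and 2 rose of 35 glutathione S-transferase genes, and 10 fell and 5 rose of 57 UDP-glucuronosyltransferase genes. cyp-35A2 had 2.95, 3.33 and 4.18 CPM in N2 DR and 1.66, 1.69 and 2.64 CPM in sek-1(km4) DR, against 7.86, 11.78 and 9.2 CPM in N2 AL and 3.42, 4.62 and 4.72 CPM in sek-1(km4) AL (−1.29 ± 0.18, edgeR adjusted p = 0.00248). cyp-35C1 (−2.05 ± 0.28) and cyp-25A1 (−0.91 ± 0.16) also fell. ugt-53 had 0.176 to 0.649 CPM in the 6 DR libraries, against 2.15 to 3.77 CPM in the 6 AL libraries, and fell by 2.84 (SE 0.30), while ugt-22 fell by 2.00 (SE 0.28). ugt-24 rose by 0.94 (SE 0.14), at 4.27 to 5.54 CPM in the DR libraries against 2.19 to 2.86 CPM in the AL libraries. gst-29 fell by 1.54 (SE 0.19) with all 6 DR libraries below all 6 AL libraries, while the fall of gst-10 was lost in 6 of the 12 fits that left out 1 library.

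Of 28 short-chain dehydrogenase genes named dhs, a list added after its values were seen, 6 (21.4%) fell and 0 rose. Among all tested genes 1.6% fell. dhs-2 had 4.09 to 4.58 CPM in N2 DR and 1.94 to 2.02 CPM in sek-1(km4) DR, against 8.25 to 10.2 CPM in N2 AL and 3.26 to 4.41 CPM in sek-1(km4) AL (−1.03 ± 0.13, edgeR adjusted p = 0.000989). Nuclear hormone receptor genes, ligand-gated transcription factors many of which have no known ligand, had rises and no falls in edgeR at the threshold: 6 of 183 rose and 0 fell, with a median of 0.15, and 14 rose and 3 fell without N2 AL replicate 3. nhr-129 had 2.90 to 4.14 CPM in N2 DR and 6.74 to 8.74 CPM in sek-1(km4) DR, against 1.15 to 1.43 CPM in N2 AL and 3.73 to 5.154 CPM in sek-1(km4) AL (1.14 ± 0.17, edgeR adjusted p = 0.00386). nhr-18 rose by 0.94 (SE 0.14) and nhr-84 by 0.78 (SE 0.14). The share of these receptors that rose, 3.28%, stood beside 1.47% of all tested genes. Without N2 AL replicate 3, 5.17% of all tested genes rose and 3.89% fell.

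Calls among protease genes went in both directions. Of 24 cathepsin and aspartyl protease genes 2 rose and 3 fell, and 4 rose and 5 fell without N2 AL replicate 3. Over all tested genes 1.47% rose and 1.6% fell, and 5.17% and 3.89% did so without that library. Besides cpr-2, tag-196, for a cathepsin F-like protease, rose by 0.49 (SE 0.12), and that call was lost in 9 of the 12 fits that left out 1 library, kept without N2 AL replicate 1, N2 AL replicate 3 and N2 DR replicate 3. The cathepsin B gene cpr-6, abundant in the intestine, had 59.0 to 189 CPM in DR libraries (median 122), against 157 to 272 CPM in AL libraries (median 239). It fell by 0.97 on the log2 scale (SE 0.21), a call lost in 8 of those fits, all but the ones without N2 AL replicate 2, N2 AL replicate 3, N2 DR replicate 2 or sek-1(km4) DR replicate 1, at −1.03 to −0.82. asp-4, for an aspartyl protease like cathepsin D (−0.61), and asp-14 (−0.93) fell as well. Of 27 autophagy genes, 1, the cargo receptor gene sqst-1, rose by 0.73 (SE 0.17), and it missed the threshold in 10 of the 12 fits, all but those without N2 AL replicate 1 or 3, at 0.65 to 0.80. Of the 21 vacuolar ATPase genes 0 passed in edgeR with or without N2 AL replicate 3, and 0 had an unadjusted p under 0.05 in the 12 libraries or were called by DESeq2. Limma with sample weights called 1 of the 21.

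Lists named for food or insulin signalling were few in genes. All 4 tested drd genes, whose name stands for dietary restriction down-regulated, had negative values, and 2 of 4 fell, 3 without N2 AL replicate 3. drd-5 had 1.76, 2.02 and 0.996 CPM in N2 DR and 1.44, 0.969 and 0.647 CPM in sek-1(km4) DR, against 4.0, 4.23 and 3.44 CPM in N2 AL and 4.27, 5.08 and 2.92 CPM in sek-1(km4) AL (−1.63 ± 0.25, edgeR adjusted p = 0.00413). drd-50 fell by 2.24 (SE 0.31), at a low level throughout sek-1(km4). Of 9 dod genes, named as downstream of the insulin-pathway factor DAF-16, 3 fell and 1 rose, and the fall of dod-3 was lost in 6 of the 12 fits that left out 1 library. dod-19 fell by 1.53 (SE 0.28) with all DR libraries below all AL libraries. dod-6 had 109, 118 and 118 CPM in N2 DR and 13.1, 10.5 and 10.5 CPM in sek-1(km4) DR, against 64.3, 55.9 and 53.7 CPM in N2 AL and 8.04, 8.85 and 8.89 CPM in sek-1(km4) AL (0.70 ± 0.13), a call lost without N2 DR replicate 3 (0.68) or sek-1(km4) AL replicate 1 (0.73). The drd and dod lists were added after their values were seen. Among all tested genes 1.6% fell and 1.47% rose, and 3.89% fell without N2 AL replicate 3.

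**Figure D3:**
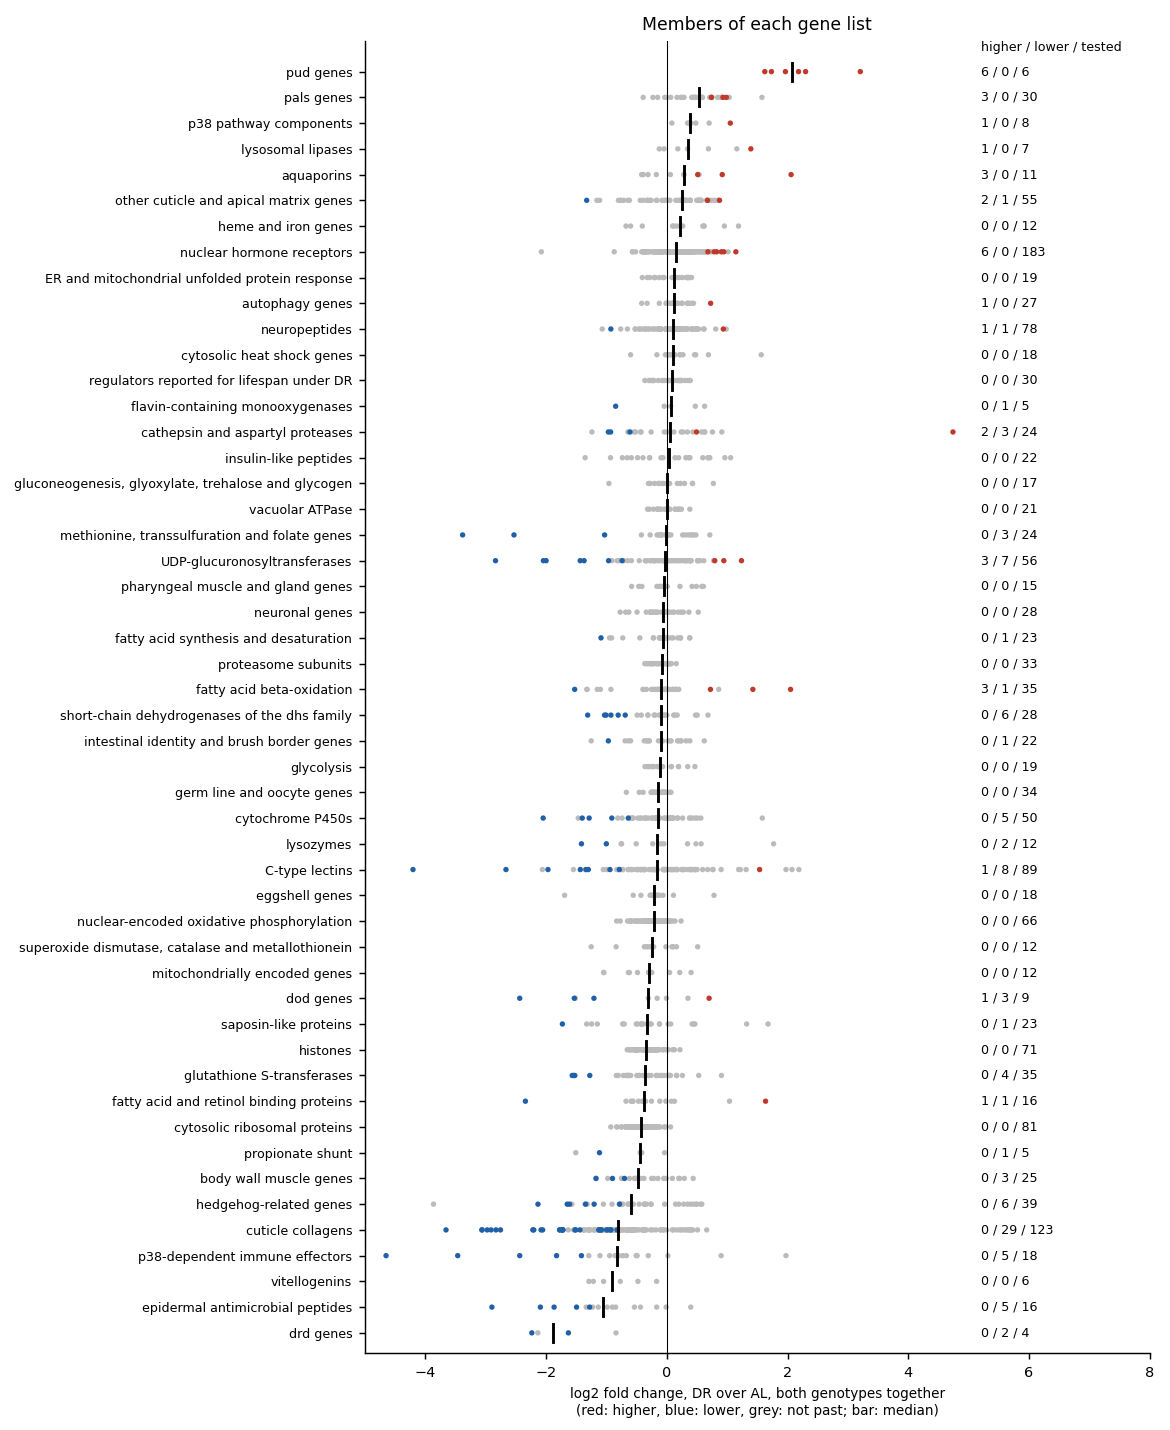
Log2 fold change of DR over AL (x axis) of each tested member of 50 gene lists (rows), each point 1 gene, red where it rose, blue where it fell and grey where it did not pass, with a black bar at the list median. The counts at the right give genes higher, lower and tested, with 6 of 6 pud genes higher at the top and 29 of 123 collagens lower near the bottom.

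Regulators known from restriction studies did not pass, and neither did most genes of basic metabolism. Of 30 regulators reported for lifespan under DR 0 were called by edgeR in either direction, with or without N2 AL replicate 3, 0 by DESeq2 and 0 at an unadjusted p under 0.05, and their median was 0.08. Limma with sample weights called 1 of the 30. pha-4 (−0.29 ± 0.41), skn-1 (0.21 ± 0.21), hlh-30 (0.17 ± 0.18), daf-16 (0.10 ± 0.22), aak-2 (0.36 ± 0.20) and nhr-62 (0.39 ± 0.21) did not pass. The values of pha-4 and daf-16 took the other sign without N2 AL replicate 3, at 0.18 and −0.08. The superoxide dismutase gene sod-3, a DAF-16 target, had −0.84 ± 0.25 and did not pass. Lists of metabolism, stress and signalling with 0 of their genes called by edgeR in the 12 libraries were those of glycolysis (19 genes), gluconeogenesis and sugar stores (17), oxidative phosphorylation (66), mitochondrially encoded genes (12), proteasome subunits (33), cytosolic heat shock genes (18), unfolded protein response genes (19), insulin-like peptides (22), heme and iron genes (12) and superoxide dismutase, catalase and metallothionein genes (12). At an unadjusted p under 0.05 these lists had, in the same order, 3, 2, 2, 0, 1, 5, 3, 3, 6 and 2 genes, and DESeq2 called 0, 0, 0, 0, 0, 1, 2, 1, 4 and 1. With sample weights 7, 4, 2, 0, 0, 3, 8, 6, 6 and 3 were called. When N2 AL replicate 3 was left out, edgeR called 3 falls in glycolysis, 1 fall in gluconeogenesis and sugar stores, 1 rise among heat shock genes, 2 rises and 1 fall in the unfolded protein response, 3 rises among 23 insulin-like peptides, 1 rise and 2 falls among heme and iron genes and 1 fall in the superoxide dismutase list.

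Cytosolic ribosomal protein genes had negative values in 80 of 81 cases, with a median of −0.43 and 0 called by edgeR, against 8 with an unadjusted p under 0.05 and 1 called by DESeq2. Limma with sample weights called 3. N2 AL replicate 3 held the largest sum of the list, 123500 CPM, against 36490 to 50980 CPM over the DR libraries, and without it the median was −0.15. Histone genes had a median of −0.34 with 0 of 71 called, and −0.17 without that library. Markers of the germ line (34 genes), the eggshell (18), the pharynx (15) and neurons (28) also had 0 called, with medians of −0.14, −0.21, −0.05 and −0.06. These averages joined medians of opposite sign in the strains. In the same order they were 0.22, 0.22, −0.49 and −0.12 in N2, with N2 AL replicate 3 included. In sek-1(km4) they were −0.42, −0.59, 0.42 and 0.08, and the difference between strains was not tested for these lists. DESeq2 called 0, 4, 1 and 0 of these markers and 3 of the histone genes, and 2, 4, 2 and 0 of the markers and 16 of the histone genes had an unadjusted p under 0.05 in edgeR. With sample weights, limma called 7, 5, 3 and 2 of the markers and 14 of the histone genes. With N2 AL replicate 3 left out, edgeR called 2 falls of germ line genes, 1 rise and 1 fall of eggshell genes, 1 gene each of the pharynx and of neurons as lower, and 3 falls of histone genes. The germ line sum was 6227 to 14030 CPM in DR libraries and 7627 to 14380 CPM in AL libraries. The major sperm protein genes, 31 in the table, were not tested, with at most 1.39 CPM in any library. Among 22 intestinal marker genes 1, cpr-6, fell, and 4 fell without that library.

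Some called genes stood next to each other on the chromosomes. Runs were sought after the calls were known, as at least 3 called genes of 1 direction with gaps of at most 20000 bp, and 8 were found. Each span ran from its first to its last called gene, so a high share of called genes within it follows from the rule. Whether 8 runs are more than expected was not tested. The pud run lies on chromosome V at 2322038 to 2330930 (WBcel235), and all 6 tested genes in it rose. On chromosome X at 4320863 to 4343706, all 4 tested genes rose: dop-6, of the dopamine receptor family, C24A8.6, and the paralogs cst-2 and cst-1, which encode kinases of the Hippo type. cst-1 had 29.4, 27.1 and 27.7 CPM in N2 DR and 55.1, 59.2 and 57.6 CPM in sek-1(km4) DR, against 17.7, 17.3 and 12.63 CPM in N2 AL and 32.2, 32.4 and 40.8 CPM in sek-1(km4) AL (0.76 ± 0.12, edgeR adjusted p = 0.004). dop-6 rose by 0.98, C24A8.6 by 0.81 and cst-2 by 0.85. On chromosome IV at 8756735 to 8780872, 5 of 6 genes rose: klp-11, for a kinesin-II motor subunit (0.72), F20C5.5 (1.27), F20C5.6 (1.01), C33D9.6 (0.86) and C33D9.5 (1.1).

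Runs of fallen genes held cth-1 and collagens. On chromosome V at 16094584 to 16105952, all 4 tested genes fell: F22B8.7 (−0.61), the chemoreceptor gene str-7 (−2.15), cth-1 and argk-1. F22B8.7 had 9.96, 9.74 and 8.76 CPM in N2 DR and 9.44, 7.61 and 8.63 CPM in sek-1(km4) DR, against 13.6, 12.98 and 12.9 CPM in N2 AL and 13.3, 15.3 and 14.5 CPM in sek-1(km4) AL. That fall was small and without overlap, next to falls of over 2 log2 units in its neighbours. On chromosome III at 10982139 to 10987873, col-92 (−2.91), col-93 and col-94 (−2.98) fell, and near-identical stretches of these genes may share reads. On chromosome X at 11879110 to 11884042, Y62H9A.3 (−0.76), Y62H9A.4 (−0.98), Y62H9A.5 (−1.04) and ule-5 (−0.73) fell, 4 of 4 tested. By chromosome, V held 1.89% higher and 2.52% lower genes of those tested on it and X held 2.01% and 2.2%, against 1.23% and 0.765% on chromosome I. Strand was not stated for the counting, so overlapping neighbours may share reads.

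The number of called genes depended on the libraries and on the test, while the called genes kept their direction. Leaving out a library other than N2 AL replicate 3 gave 89 to 219 higher and 129 to 203 lower genes, against 215 and 234, and the higher count was more than 1.5 times below 215 without N2 DR replicate 1 (108) or 2 (103), sek-1(km4) DR replicate 1 (142), 2 (97) or 3 (135), or sek-1(km4) AL replicate 1 (91) or 2 (89). The lower count was more than 1.5 times below 234 without N2 DR replicate 2 (129) or 3 (146), sek-1(km4) DR replicate 2 (137), or sek-1(km4) AL replicate 1 (145) or 2 (135). Of the 449 genes, 184 passed in each of the 12 fits that left out 1 library, 73 risen and 111 fallen, and 0 changed sign in any of them. Sample weights estimated by limma were 0.0668 for N2 AL replicate 3 and 0.853 to 2.23 for the other libraries except N2 DR replicate 3 (0.399). With these weights 1533 genes were higher and 1150 lower, and all 449 were among them. DESeq2 called 499 and 579, with 448 of the 449 among them.

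**Figure D4:**
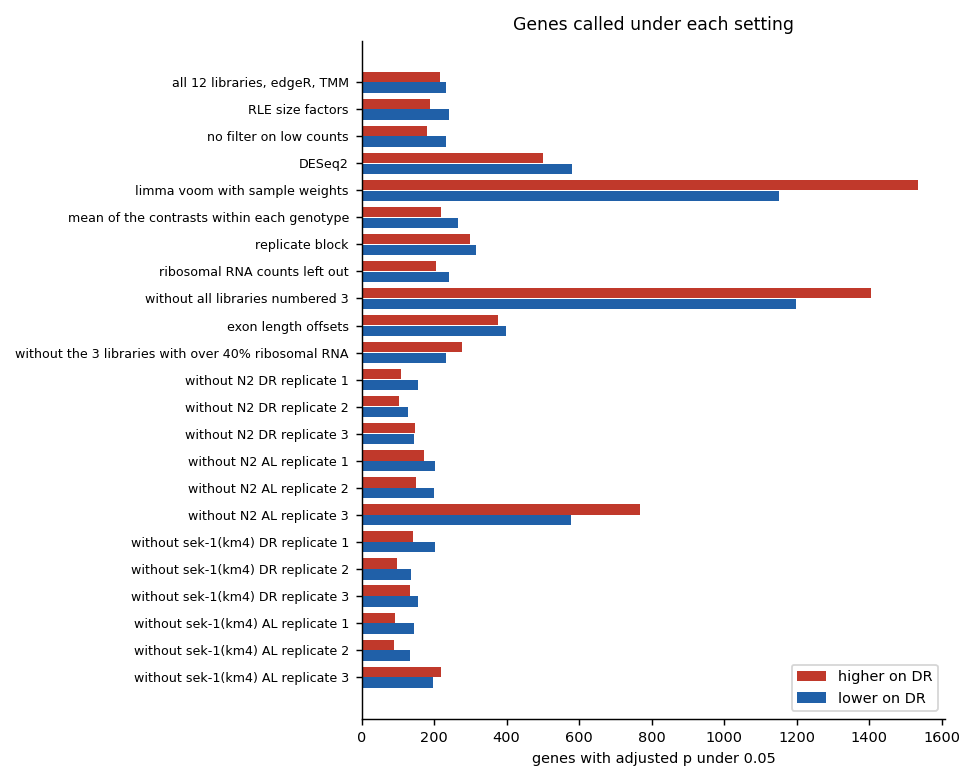
Genes with adjusted p under 0.05 (x axis) that were higher (red bars) or lower (blue bars) on DR under each setting (rows). The 12 libraries gave 215 and 234, leaving out N2 AL replicate 3 gave 768 and 578, leaving out another library gave 89 to 219 and 129 to 203, and sample weights gave 1533 and 1150.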

How the data were processed

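The deposited table held read counts per gene for 12 libraries, and the submitters' processing notes name featureCounts and Subread for them. For the aligner, build, strand setting and versions, nothing is given in the sources used. The counts were used as deposited, and 0 columns belonged to no sample. Gene names and places came from the WBcel235 annotation. Genes passed filterByExpr (minimum count 10), were scaled by TMM and tested with the robust quasi-likelihood F-test of edgeR 4.0.16 in R 4.3.3, with genotype and diet as additive terms and Benjamini-Hochberg adjustment over all tested genes. Within-genotype contrasts and the interaction came from 1 fit of the 4 group means. The SE was taken as |log2 fold change|/√F. Counts-per-million (CPM) used TMM library sizes, in which 3 counts came to 0.104 to 0.279 CPM. Precision was limited by 3 libraries per group, and such levels cover counting error only. The alternatives included DESeq2 1.42.0 and limma 3.58.1, and the main script was tested on simulated data.

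Named genes were the 15 highest and 15 lowest log2 fold changes among genes past an adjusted p of 0.05 that averaged 5 CPM or more and whose diets did not overlap in either genotype, up to 3 members of smallest p in each of 50 lists, a set of genes known from work on diet, and up to 10 interaction genes. The members and lists were chosen with earlier results of these data known, and the drd, dod, dhs and hedgehog-related lists were added after their values were seen.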

Additional observations from a re-analysis of the deposited data

Results flagged for a closer look

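The diet effect on pha-4, a FoxA transcription factor gene needed for lifespan extension under one form of DR, had opposite signs in the strains. It was 0.6458 in sek-1(km4) against −1.29 in N2 on the log2 scale, and the DR and AL libraries did not overlap in either strain. pha-4 had 7.46, 7.43 and 5.83 CPM in sek-1(km4) DR, against 4.44, 3.96 and 4.85 CPM in sek-1(km4) AL. In N2 it had 3.04, 2.83 and 1.75 CPM in DR, against 3.58, 3.31 and 12.2 CPM in AL, where the highest value was that of replicate 3. The difference of the effects, sek-1(km4) minus N2, was 1.93 ± 0.61 (edgeR adjusted p = 0.531, unadjusted p = 0.00855). Without N2 AL replicate 3 it was 1.04 ± 0.32 (edgeR adjusted p = 0.192), so it did not pass in either fit. Over all tested genes, 162 (1.11%) had such a separation in opposite directions.

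The 177 named genes and 4 library measures were examined for a library far from the other 5 of its diet, both strains together, by the gap to its neighbour over the range of the 6 values, taken as log2 CPM for genes. Of 362 such groups 31 held one. The limit used gives about 1 in 20 by chance for 6 independent values of a single normal distribution. That rate does not apply here, since each group pooled both strains and the same libraries recurred over the genes. N2 AL replicate 3 was the far library in 25 of the 31. It was the lowest AL library for skn-1 (63.8 CPM), sek-1 (3.72), daf-16 (47.29), aak-2 (13.3), nhr-62 (1.11), mrp-5 (59.4), acs-1 (12.54), fmo-4 (5.02), syd-2 (3.90) and vha-16 (72.7). It was the highest AL library for pha-4 (12.2 CPM), pat-10 (154), hrg-10 (13.9), hsp-12.6 (3.62), spp-1 (158), cpg-9 (10.6), rps-25 (2284), ubl-1 (1587), sod-1 (212), pas-4 (233), pbs-1 (420.0), ndua-7 (232.7), vha-9 (156), MTCE.31 (1215) and MTCE.34 (92.5). Among the DR libraries, N2 DR replicate 3 was the lowest for pat-10 (35.01 CPM) and dod-19 (4.90) and the highest for cutl-16 (36.1), and N2 DR replicate 2 was the highest for fmo-2 (4.43). sek-1(km4) DR replicate 2 was the lowest for cyp-35C1 (0.610 CPM), and sek-1(km4) DR replicate 3 for dhs-20 (0.485).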

How the results depend on the processing

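Each of the 449 genes kept its sign under every alternative run. RLE size factors (188 higher, 240 lower), no filter on low counts (181, 233), the mean of the within-genotype contrasts (218, 267), leaving out ribosomal RNA counts (204, 242) and leaving out the 3 libraries with over 40% ribosomal RNA (276, 232, chosen after seeing the data) stayed within 1.5 times of 215 and 234. DESeq2 gave 499 and 579, sample weights 1533 and 1150, leaving out all libraries numbered 3 1404 and 1197, and exon length offsets 376 and 398. Leaving out 1 library gave 89 (without sek-1(km4) AL replicate 2) to 768 (without N2 AL replicate 3) higher and 129 (without N2 DR replicate 2) to 578 (without N2 AL replicate 3) lower genes. Without filter the median of all genes shifted to −0.132, against −0.0413. The cause was not tested for any of these shifts.

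A replicate block gave 298 and 315. The numbers were not taken to pair libraries, since the labels do not say that equal numbers share a batch. In their deviations from group means, 13 of 18 same-numbered pairs correlated above 0.1 (−0.0715 to 0.388). Pairs of other numbers ranged from −0.392 to 0.331. In each group replicate 3 had the highest share of mitochondrially encoded mRNA outside rRNA (0.5749% to 1.178%). Of 12 libraries 8 correlated best with their own number, a hint from the data and not the design. The interaction had 0 higher and 1 lower gene under the block and 18 and 17 in DESeq2, and leaving out 1 library gave 0 to 9 higher and 0 to 4 lower. Fitted on its own 6 libraries, N2 had 0 higher and 0 lower genes in edgeR (945 at an unadjusted p under 0.05), against 53 and 106, and sek-1(km4) had 995 and 1166, against 25 and 41. That N2 fit included N2 AL replicate 3, so these counts do not rank the strains.

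Genes that changed sign were not past the threshold. With sample weights, without the libraries numbered 3 and without those of high ribosomal RNA, unc-10 had 0.0792, 0.0775 and 0.00262, phat-6 0.0918, 0.24 and 0.0197, MTCE.31 0.104, 0.17 and 0.323, MTCE.34 0.374, 0.453 and 0.7, and pha-4 0.338, 0.348 and 0.289. daf-16 had −0.042 with weights, −0.0365 without the libraries numbered 3 and −0.0183 with length offsets, and fmo-2 had −0.0138 under the block. Leaving out 1 library, MTCE.31 ranged from −0.756 to 0.228, MTCE.34 from −1.27 to 0.656, pha-4 from −0.401 to 0.176, daf-16 from −0.0843 to 0.197, fmo-2 from −0.49 to 0.232 and eat-2 from −0.251 to 0.0438. Genes under the level of 3 counts in a group have uncertain fold changes.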
